A study of Saccharomyces cerevisiae with 24 samples.

Results

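The hexose transporters of budding yeast are plasma membrane proteins, encoded by the HXT genes, that carry glucose, fructose and mannose into the cell down their gradient. Results are given here for 8 of these genes, HXT1, HXT2, HXT3, HXT4, HXT5, HXT6, HXT7 and HXT10, which were taken by name from the 6576 systematic names on the arrays. All 8 were found and all 8 passed the filter on dim probes that 6210 names passed. Each was read by 1 probe with 9 or 10 spots, and on each of the 24 arrays all of them exceeded background and 0 were saturated. HXT7 and HXT6 are next to each other on chromosome IV, with HXT3 beyond 1 further gene. HXT4, HXT1 and HXT5 lie together on chromosome VIII, HXT10 is on chromosome VI and HXT2 on chromosome XIII.

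Yeast matches its transporters to the sugar supply. Low-affinity carriers such as Hxt1 and Hxt3 serve cells in ample glucose, and high-affinity carriers such as Hxt2, Hxt4, Hxt6 and Hxt7 serve cells in scarce glucose. The sensors Snf3 and Rgt2 act through Mth1 and Std1 on the repressor Rgt1, which holds many HXT genes off when glucose is absent. The repressor Mig1, which the Snf1 kinase counteracts, shuts genes for other carbon sources when glucose is plentiful. HXT5 differs from the rest in following growth rate and stress more than glucose itself.

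The series set protein stress beside lipid stress in the endoplasmic reticulum (ER), whose membrane protein Ire1 senses both. All groups were strain W303 of mating type a without the chromosomal IRE1 gene, grown in selective synthetic complete medium at low cell density. IRE1 cells expressed Ire1, and ΔLD cells expressed ire1ΔLD, the form labelled as lacking LD, the lumenal part of the sensor. Each was sampled untreated, after 1 hour in 2 mM dithiothreitol (DTT), which reduces disulfide bonds, in a Δire1Δopi3 background (opi3 cells), and in that background after overnight growth with 1 mM choline. OPI3 encodes a methyltransferase of phosphatidylcholine synthesis, and added choline can be built into that lipid by a separate pathway. Each of the 8 groups had 3 arrays. The labels number the replicates but do not say whether they were separate cultures, so p-values measure the spread between these samples, which may be technical. How Ire1 or ire1ΔLD was carried is not given in the sources used here.

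OPI3 itself checked the labels, and the arrays labelled Δopi3 were not alike. OPI3 was not above background on 7 of these 12 arrays. It was above background in opi3 IRE1 cells at 0.752% (replicate 2) and 31.0% (replicate 3) of its level in untreated cells, in opi3 ΔLD cells at 1.53% (replicate 2) and 23.3% (replicate 3), and in IRE1 opi3 cells with choline at 11.4% (replicate 3). Results on opi3 cells are therefore given as labelled and, where a call or value changed, without these arrays. Leaving out all 5 left only replicate 1 of opi3 cells without choline in each strain, so effect sizes alone are given there. IRE1 was higher in ΔLD cells than in IRE1 cells in all 4 states, by 2.10 to 2.96 on the log2 scale. The 5 mating type a markers were above background on every array, and of the α markers STE3 was above background on all 24, MF(ALPHA)1 on 12. The a markers and STE3 moved with the treatments. In opi3 IRE1 cells all 5 a markers were lower and STE3 was higher. With DTT in IRE1 cells 4 a markers were lower and STE3 was higher by 1.47, while MF(ALPHA)1 differed by −1.10. MF(ALPHA)1 was above background on 12 arrays only, so its direction is not read as a result. The part of the mating type markers in the results below was not tested. The replicate number is also the slide, and all opi3 arrays sat in row 2 of their slides, so slide row and the opi3 label cannot be told apart.

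Every level below is a log2 signal relative to the array's 75th percentile, and a difference of 1 is 2-fold. Probes differ in brightness for reasons other than transcript number, so levels are compared only within a gene. Among group means, HXT5 had the widest span of the 8 genes, 3.34 or 10.1-fold from untreated IRE1 cells to DTT-treated ΔLD cells. HXT10 spanned 2.28, HXT7 2.18, HXT6 2.14, HXT4 1.78, HXT2 1.75 and HXT1 1.46. HXT3 had the narrowest span, 0.82. The order of the group means shows where each gene was high. HXT5 was highest in DTT-treated ΔLD cells, then opi3 ΔLD, opi3 IRE1 and DTT-treated IRE1 cells, whose neighbours overlapped, and all 4 lay above the other 4 groups without overlap. HXT10 had the same 4 groups on top, in the order opi3 IRE1, opi3 ΔLD, DTT-treated ΔLD and DTT-treated IRE1 cells, again apart from the rest. HXT1 was highest in both DTT groups and lowest in both opi3 groups, and the opi3 pair lay apart from its neighbours. The DTT pair was not clearly apart: its lowest array and the highest array of opi3 IRE1 cells with choline both read 3.45. HXT2 was highest in both opi3 groups, followed without overlap by both choline groups, untreated ΔLD cells, then untreated and DTT-treated IRE1 cells, and last DTT-treated ΔLD cells. HXT4 was highest in opi3 ΔLD cells and lowest in both DTT groups, and the 5 groups between them overlapped as neighbours. All neighbours in the order overlapped for HXT3, HXT6 and HXT7. The median SD within a group of 3 arrays was lowest for HXT1, 0.12, and highest for HXT7, 0.53.

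**Figure D1:**
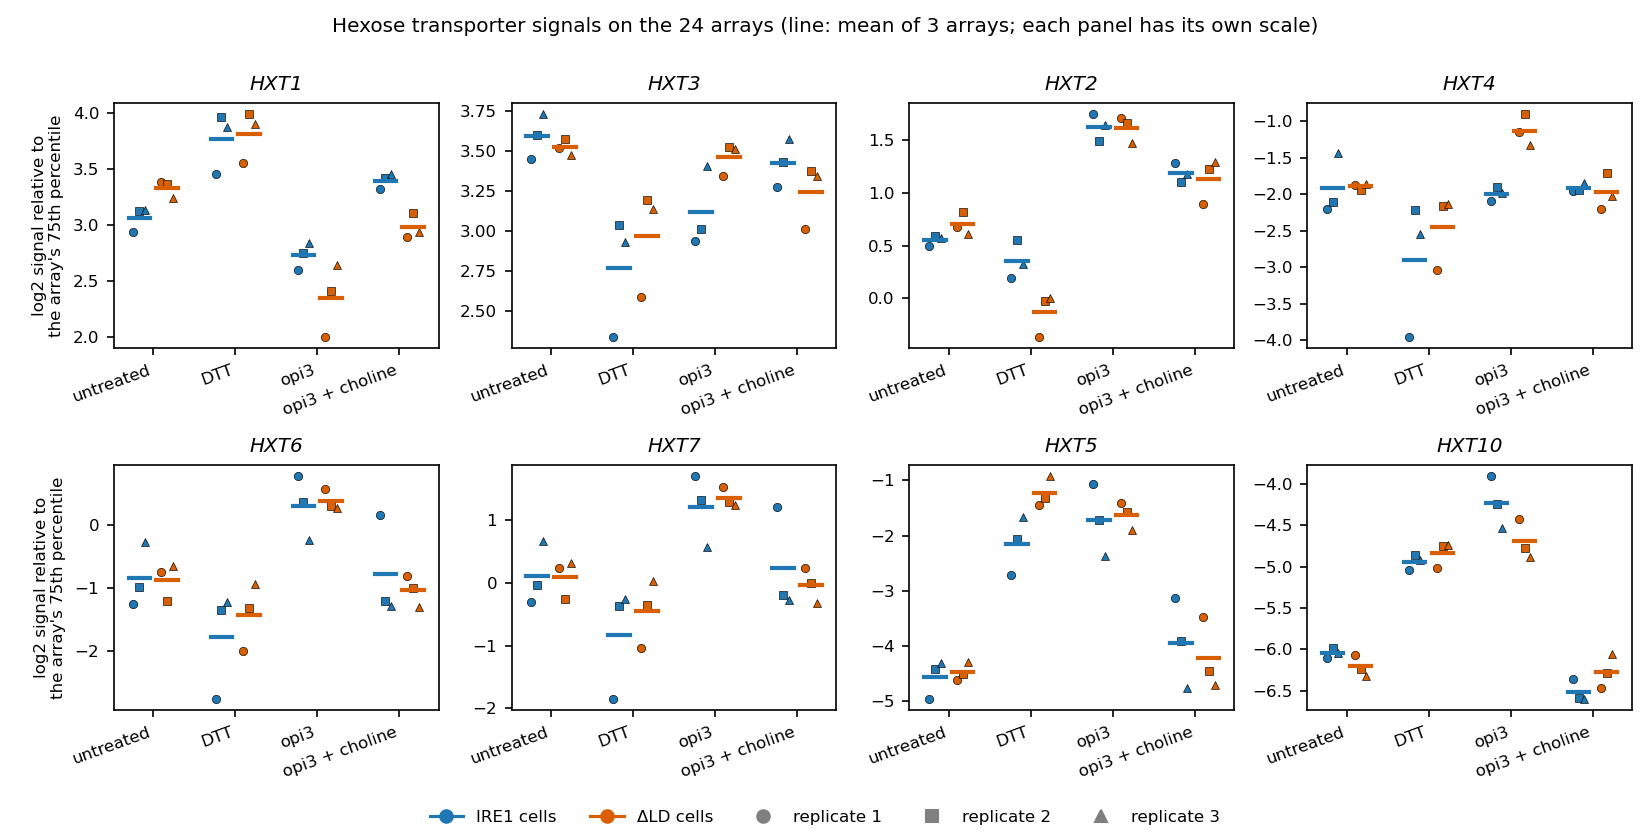
Log2 signal of the 8 hexose transporters relative to the array's 75th percentile (y axis) on the 24 arrays, by state (x axis) and strain (blue IRE1 cells, orange ΔLD cells), with a line at the mean of 3 arrays and marker shapes for replicates. HXT5 and HXT10 lay higher with DTT and in opi3 cells than untreated in both strains, and HXT2, HXT6 and HXT7 had their highest means in opi3 cells.

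With DTT HXT1, HXT5 and HXT10 were higher in both strains and HXT3 was lower, although with the arrays scaled to the E1A control spots HXT3 in IRE1 cells turned to 0.05. In IRE1 cells 6 of the 8 genes were called at an adjusted p under 0.05 (3 higher, 3 lower), where 69.5% of the 6210 genes tested were called (39.4% higher, 30.1% lower), and the median difference was −0.51 for the 8 genes against 0.07 for all genes. ΔLD cells had 5 of 8 called with DTT (3 higher, 2 lower) where 66.4% of all genes were (38.1% higher, 28.3% lower), with medians of −0.55 and 0.08. These shares are close to those of all genes, so the count alone says little about the transporters. HXT6 and HXT7, whose signals could not be told apart, both enter these counts and medians. With the pair averaged the median of the 7 signals with DTT was −0.20 in IRE1 cells and −0.55 in ΔLD cells.

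In opi3 cells the larger part of the 8 genes was higher. Of the 8, IRE1 cells had 7 called (5 higher, 2 lower) against 67.3% of all genes (32.2% higher, 35.1% lower). ΔLD cells had 7 called (6 higher, 1 lower) against 56.5% (29.2% higher, 27.3% lower). The medians were 1.08 and 1.07 for the 8 genes, beside −0.02 and 0.00 for all genes. HXT6 and HXT7 both enter these counts and medians. With the pair averaged the medians of the 7 signals were 1.07 in IRE1 cells and 0.91 in ΔLD cells. Leaving out the 5 arrays on which OPI3 was above background left 1 opi3 array without choline in each strain, so no count is given.

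With choline, the genes called in both the opi3 and the choline comparison of a strain differed in the opposite direction. IRE1 cells had 5 of 8 called (1 higher, 4 lower) against 70.4% of all genes (34% higher, 36.3% lower). ΔLD cells had 7 called (1 higher, 6 lower) against 60% (27.8% higher, 32.2% lower). The medians were −0.70 and −1.11 for the 8 genes, beside −0.02 and −0.03 for all genes. With HXT6 and HXT7 averaged, the choline median of the 7 signals was −0.44 in IRE1 cells and −0.85 in ΔLD cells. The DTT and opi3 comparisons share the untreated arrays, and the opi3 and choline comparisons share the opi3 arrays with opposite sign. A chance deviation of the shared arrays enters both members of each pair. The cultures were measured in bulk, so a change in every cell and a change in some cells cannot be told apart.

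**Figure D2:**
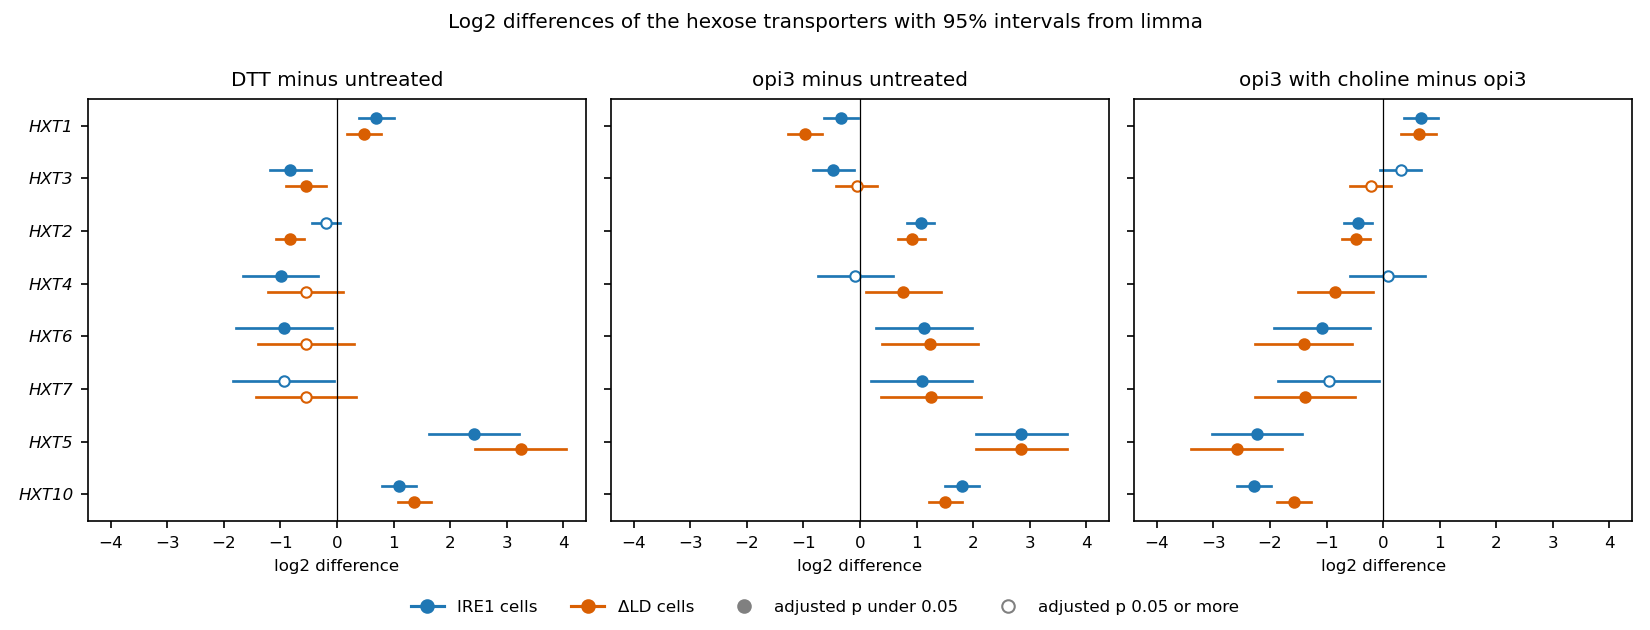
Log2 difference (x axis) with its 95% interval from limma for each transporter (y axis) after DTT, in opi3 cells and with choline, in IRE1 cells (blue) and ΔLD cells (orange), with filled points at an adjusted p under 0.05. HXT5 has the largest estimate in 5 of the 6 contrasts, and HXT10 exceeds it slightly with choline in IRE1 cells.

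HXT1, a low-affinity carrier induced by abundant glucose, was lower in opi3 cells, where most of the 8 genes were higher. It gave 2.93, 3.13 and 3.14 on the 3 untreated arrays of IRE1 cells and 3.45, 3.96 and 3.88 with DTT, without overlap. In ΔLD cells the untreated arrays read 3.38, 3.36 and 3.24 and the DTT arrays 3.55, 3.99 and 3.90. The DTT rise was 0.70 in IRE1 and 0.48 in ΔLD cells (SE 0.15, adjusted p 0.0003 and 0.00655), and the second lost its call without all replicate 2 arrays (0.41, adjusted p 0.115) or without all replicate 3 arrays (0.40, adjusted p 0.0944). The rises were 1.25 and 1.07 with quantile normalization. With E1A scaling they were 1.57 and 0.83, where the medians of all genes were 0.94 and 0.42.

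Opi3 cells had less HXT1 signal. The arrays read 2.60, 2.75 and 2.84 in IRE1 cells and 2.01, 2.41 and 2.64 in ΔLD cells, all below the untreated arrays of the same strain. HXT1 fell by 0.98 in ΔLD cells (SE 0.15, adjusted p 1.85e-05). The fall by 0.34 in IRE1 cells was close to the threshold (adjusted p 0.048). It also depended on the processing: it was −0.03 with quantile normalization (adjusted p 0.873, and 0.07 above the median of all genes), and was not called without opi3 replicate 1 (−0.27, adjusted p 0.157) or 2 (−0.34, adjusted p 0.0816), or untreated replicate 2 (−0.30, adjusted p 0.119) or 3 (−0.30, adjusted p 0.12). With choline the arrays read 3.32, 3.42 and 3.45 in IRE1 cells, above every untreated array of that strain. They read 2.89, 3.11 and 2.94 in ΔLD cells, below every untreated array of that strain. The differences from untreated cells, 0.33 and −0.35, were not called by limma (adjusted p 0.251 and 0.623). The rises from opi3 cells were 0.67 and 0.63 (adjusted p 0.00048 and 0.00124). With quantile normalization they were 0.35 (adjusted p 0.056) and 0.39 (adjusted p 0.0423). In ΔLD cells the rise was 0.97 without the 2 opi3 arrays on which OPI3 was above background, which left 1 opi3 array.

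HXT3, the other low-affinity carrier, had its lowest means after DTT. The untreated arrays read 3.45, 3.60 and 3.73 in IRE1 cells and the DTT arrays 2.34, 3.04 and 2.93. In ΔLD cells they read 3.52, 3.58 and 3.47 untreated and 2.59, 3.19 and 3.14 with DTT, so neither strain's groups overlapped. The differences were −0.82 in IRE1 and −0.55 in ΔLD cells (SE 0.17, adjusted p 0.00032 and 0.00891). They depended on the scaling, since quantile normalization gave −0.30 (adjusted p 0.138) and −0.09 (adjusted p 0.686). Scaling to the E1A control spots gave 0.05 (adjusted p 0.868) and −0.21 (adjusted p 0.496). E1A scaling also moved the median of all genes, from 0.07 to 0.94 in IRE1 cells and from 0.08 to 0.42 in ΔLD cells. Relative to that median HXT3 differed by −0.90 and −0.63 with either scaling. That equality holds by construction, since each scaling subtracts 1 value per array. With quantile normalization the median of all genes was −0.02 in both strains. Without DTT replicate 1 the ΔLD difference was −0.36 (adjusted p 0.0762).

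In opi3 cells HXT3 passed the test in IRE1 cells alone, and a difference of the opi3 effect between the strains was not shown (adjusted p 0.438). Opi3 IRE1 cells read 2.94, 3.02 and 3.41, a difference of −0.48 from untreated cells (adjusted p 0.0206), which was −0.08 with quantile normalization (adjusted p 0.708) and was not called without opi3 replicate 1 (−0.38, adjusted p 0.0918) or 2 (−0.42, adjusted p 0.0694) or untreated replicate 3 (−0.41, adjusted p 0.075). Opi3 ΔLD cells read 3.35, 3.52 and 3.51, overlapping the untreated arrays, with a difference of −0.06 (95% interval −0.42 to 0.30). With choline the differences were 0.31 in IRE1 cells (95% interval −0.05 to 0.67) and −0.22 in ΔLD cells (−0.58 to 0.14). The first was called with the replicate number as a block (adjusted p 0.0219), without all replicate 1 arrays (0.29, adjusted p 0.0391) and without opi3 replicate 3 (0.45, adjusted p 0.0339), and the second with quantile normalization (−0.45, adjusted p 0.0356).

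HXT2, which encodes a high-affinity carrier made when glucose runs low, was higher in opi3 cells of both strains. Untreated arrays read 0.50, 0.59 and 0.58 in IRE1 cells and 0.68, 0.82 and 0.61 in ΔLD cells. Opi3 arrays read 1.75, 1.49 and 1.64 in IRE1 cells and 1.71, 1.66 and 1.47 in ΔLD cells, above every untreated array. The rises were 1.07 (SE 0.12, adjusted p 2.47e-07), or 2.10-fold, and 0.91 (adjusted p 3.22e-06), or 1.88-fold. All 3 slides showed them, from 0.84 to 1.25, including slide 3 where OPI3 signal was highest.

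With choline HXT2 lay between its opi3 and untreated levels. The arrays read 1.28, 1.1 and 1.17 in IRE1 cells and 0.89, 1.22 and 1.29 in ΔLD cells, below the opi3 arrays and above the untreated arrays of the same strain. The differences from opi3 cells were −0.44 (adjusted p 0.00244) and −0.48 (adjusted p 0.00176). With E1A scaling they were −0.23 (adjusted p 0.441) and −0.33 (adjusted p 0.319), where the median of all genes was 0.19 and 0.12. Without all replicate 1 arrays the ΔLD value was −0.31 (adjusted p 0.0233).

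With DTT, HXT2 differed between the strains. DTT arrays of IRE1 cells read 0.19, 0.55 and 0.33, which overlapped the untreated arrays, while those of ΔLD cells read −0.36, −0.02 and 0.01, below every untreated array. The differences were −0.20 in IRE1 cells (95% interval −0.44 to 0.05, adjusted p 0.141) and −0.83 in ΔLD cells (SE 0.12, adjusted p 5.45e-06). With E1A scaling the sign in IRE1 cells turned, to 0.67 (adjusted p 0.0067, below the median of 0.94), and the value in ΔLD cells was −0.48 (adjusted p 0.0759). Without DTT replicate 2 the IRE1 difference was called (−0.29, adjusted p 0.0468).

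HXT4, a carrier of higher affinity induced by low glucose, varied more between replicates. Untreated IRE1 cells read −2.20, −2.11 and −1.43, and with DTT −3.95, −2.22 and −2.55, with replicate 1 far below the other two. The difference of −1.0 (SE 0.32, adjusted p 0.009) was −0.47 without DTT replicate 1 (adjusted p 0.0878) and −0.76 without untreated replicate 3 (adjusted p 0.0582). With E1A scaling it was −0.13 (adjusted p 0.696), where the median of all genes was 0.94. It was −0.61 without all replicate 1 arrays (adjusted p 0.0215), and was not called without all replicate 3 arrays (−0.93, adjusted p 0.0821). ΔLD cells read −1.88, −1.94 and −1.86 untreated and −3.04, −2.16 and −2.13 with DTT, a difference of −0.55 (95% interval −1.21 to 0.11).

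In opi3 cells HXT4 read −2.10, −1.91 and −1.98 in IRE1 cells, within the range of the untreated arrays (difference −0.08, 95% interval −0.74 to 0.58). It read −1.15, −0.90 and −1.33 in opi3 ΔLD cells, above all untreated arrays, a rise of 0.76 (adjusted p 0.0463). That call was lost without any 1 of 5 arrays (0.65 to 0.78, adjusted p 0.0795 to 0.137), namely the 3 untreated arrays and opi3 replicates 1 and 2, and with quantile normalization (0.69, adjusted p 0.0681). Choline lowered it in ΔLD cells by −0.85 (adjusted p 0.0275), with arrays at −2.20, −1.70 and −2.02, and this was not called without opi3 replicate 1 (−0.86, adjusted p 0.057) or 2 (−0.73, adjusted p 0.0905), or choline replicate 1 (−0.73, adjusted p 0.0886) or 3 (−0.82, adjusted p 0.0641). Without the 2 opi3 ΔLD arrays on which OPI3 was above background, the values were 0.74 and −0.82, from the 1 opi3 array left. IRE1 cells with choline read −1.96, −1.95 and −1.84, a difference of 0.08 (95% interval −0.58 to 0.74).

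HXT6 and HXT7 encode nearly identical high-affinity carriers, and their probes could not be told apart on these arrays. The HXT7 signal exceeded the HXT6 signal by 0.97 ± 0.05 (SD, 24 arrays), between 0.81 and 1.05, while HXT6 itself ranged over 3.52. The correlation of the 2 signals was 0.999 over the 24 arrays, which share array, slide and scaling. Each probe may read transcript of both genes, so the constant offset says nothing about which is more abundant.

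**Figure D3:**
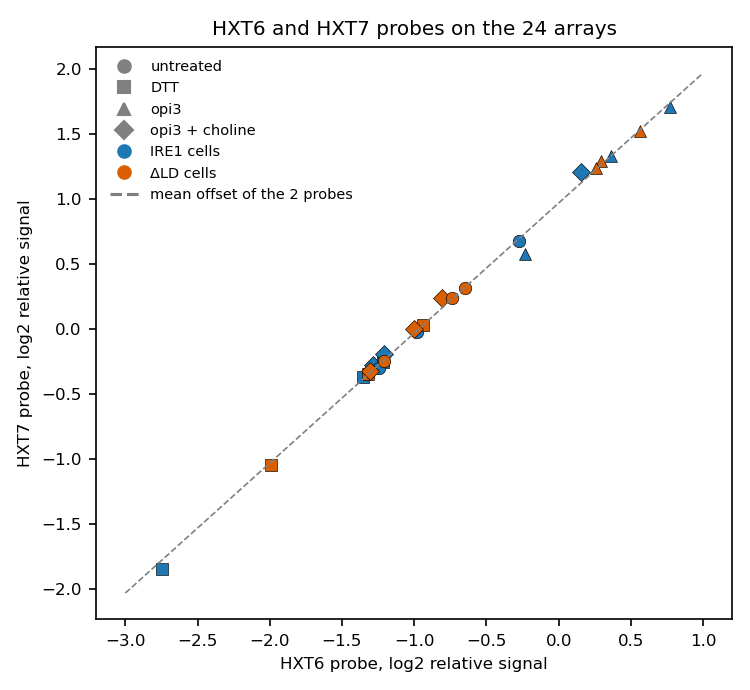
Log2 relative signal of the HXT7 probe (y axis) against the HXT6 probe (x axis) on the 24 arrays, by state (shape) and strain (colour), with a dashed line at the mean offset of 0.97. All points lie close to the line over the whole range of HXT6.

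This pair was higher in opi3 cells. HXT6 read −1.24, −0.98 and −0.28 in untreated IRE1 cells and 0.77, 0.36 and −0.23 in opi3 IRE1 cells, where replicate 3 lay just above the highest untreated array. For HXT7 that opi3 array read 0.58, below untreated replicate 3 at 0.68, so its groups overlapped in IRE1 cells and the slide 3 difference was −0.10. The same array had the lowest offset between the 2 probes, 0.81. In ΔLD cells it read −0.74, −1.21 and −0.65 untreated and 0.56, 0.29 and 0.26 in opi3 cells, which were clearly apart. The HXT6 rises were 1.13 (SE 0.41, adjusted p 0.0194) and 1.24 (adjusted p 0.0149), and the HXT7 rises 1.09 (adjusted p 0.0299) and 1.25 (adjusted p 0.0176).

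These calls rested on few arrays. In IRE1 cells HXT6 was not called without untreated replicate 1 (0.93, adjusted p 0.0855) or 2 (1.06, adjusted p 0.0555) or opi3 replicate 1 (0.90, adjusted p 0.0921). Without all replicate 1 arrays HXT6 was 0.69 (adjusted p 0.0416) and HXT7 was 0.63 and not called (adjusted p 0.0766). Without all replicate 2 arrays neither was called, at 1.03 (adjusted p 0.175) and 0.95 (adjusted p 0.226). Without all replicate 3 arrays HXT7 was 1.68 (adjusted p 0.00962). HXT7 was also not called without opi3 replicate 2 (1.03, adjusted p 0.0756), untreated replicate 1 (0.88, adjusted p 0.117) or 2 (1.02, adjusted p 0.0774), or opi3 replicate 1 (0.84, adjusted p 0.13). In ΔLD cells neither was called without all replicate 2 arrays (1.1 for HXT6 and 1.11 for HXT7, adjusted p 0.179 and 0.194). The same held without opi3 replicate 1 (1.14 and 1.17, adjusted p 0.0519 and 0.0568) or untreated replicate 2 (1.07 and 1.08, adjusted p 0.0635 and 0.0719). Without the 2 opi3 arrays with OPI3 above background both were 1.43, from the 1 opi3 array left.

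With choline HXT6 read 0.16, −1.21 and −1.28 in IRE1 cells, where replicate 1 stayed among the opi3 arrays, and −0.81, −1.0 and −1.31 in ΔLD cells, below every opi3 array. It fell in ΔLD cells, with a difference of −1.41 (SE 0.41, adjusted p 0.00621) for HXT6 and −1.38 (adjusted p 0.0092) for HXT7, and neither was called without all replicate 2 arrays (−1.47 and −1.43, adjusted p 0.0789 and 0.097). In IRE1 cells HXT6 differed by −1.08 (adjusted p 0.024) and HXT7 by −0.96 (adjusted p 0.0503). The HXT6 call was lost without opi3 replicate 1 (−0.84, adjusted p 0.109) or 2 (−1.05, adjusted p 0.0567) or choline replicate 2 (−0.86, adjusted p 0.102) or 3 (−0.82, adjusted p 0.113), and HXT7 was called without choline replicate 1 (−1.44, adjusted p 0.00519) or opi3 replicate 3 (−1.28, adjusted p 0.0183).

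After DTT HXT6 read −2.75, −1.35 and −1.21 in IRE1 cells, with replicate 1 apart and the range overlapping the untreated one, and −1.99, −1.32 and −0.94 in ΔLD cells. The difference in IRE1 cells was −0.94 for both genes (SE 0.41 and 0.42), called for HXT6 (adjusted p 0.047) and not for HXT7 (adjusted p 0.0557). Blocking on the replicate number left the HXT6 value uncalled (adjusted p 0.0575). It was −0.45 without DTT replicate 1 (adjusted p 0.32), −1.01 without untreated replicate 2 (adjusted p 0.0648) and −0.66 without untreated replicate 3 (adjusted p 0.199). With E1A scaling it was −0.07 (adjusted p 0.852), where the median of all genes was 0.94. HXT7 was called without untreated replicate 1 (−1.15, adjusted p 0.0418) or DTT replicate 2 (−1.17, adjusted p 0.0378) or 3 (−1.23, adjusted p 0.0275). In ΔLD cells both differed by −0.55, with a 95% interval for HXT6 of −1.40 to 0.30.

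HXT5, the transporter of slow-growing and stressed cells, changed most. Untreated arrays read −4.96, −4.43 and −4.31 in IRE1 cells and −4.63, −4.51 and −4.3 in ΔLD cells. With DTT they read −2.71, −2.06 and −1.67 in IRE1 cells and −1.45, −1.33 and −0.92 in ΔLD cells, far above every untreated array. The rises were 2.42 (SE 0.38, adjusted p 1.7e-05), or 5.36-fold, and 3.25 (adjusted p 7.25e-07), or 9.49-fold. The 3 slides gave 2.25 to 2.64 in IRE1 cells and 3.18 to 3.38 in ΔLD cells.

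HXT5 was also high in opi3 cells. The arrays read −1.07, −1.71 and −2.37 in IRE1 cells and −1.41, −1.58 and −1.91 in ΔLD cells, and the difference from untreated cells was 2.85 in both (SE 0.38, adjusted p 3.45e-06 and 5.95e-06), or 7.22-fold and 7.20-fold. Choline lowered it, to −3.14, −3.92 and −4.77 in IRE1 cells and −3.48, −4.46 and −4.72 in ΔLD cells. The differences were −2.23 (adjusted p 4.86e-05) and −2.59 (adjusted p 1.82e-05). The choline arrays spread widely, and replicate 1 stayed above every untreated array in both strains, while replicate 3 lay within the untreated range in IRE1 cells and just below it in ΔLD cells. All 6 HXT5 calls held in all alternatives tried.

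HXT10, a weakly expressed member of the family, was high in the same 4 groups as HXT5. Its signal was low, but every spot was above background. Untreated arrays read −6.10, −5.98 and −6.04 in IRE1 cells and −6.07, −6.24 and −6.32 in ΔLD cells. DTT arrays read −5.04, −4.87 and −4.92 in IRE1 cells and −5.02, −4.75 and −4.74 in ΔLD cells, all above the untreated ones. The rises with DTT were 1.1 (SE 0.14, adjusted p 1.71e-06) and 1.37 (adjusted p 1.65e-07). With normexp background correction they were smaller, 0.62 and 0.89, and with E1A scaling the first was 1.97, where the median of all genes was 0.94.

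HXT10 was highest in opi3 cells, with arrays at −3.91, −4.25 and −4.54 in IRE1 cells and −4.43, −4.77 and −4.89 in ΔLD cells. The rises were 1.81 (SE 0.14, adjusted p 2.95e-09), or 3.5-fold, and 1.51 (adjusted p 7.48e-08), or 2.85-fold. Choline brought the signal down to −6.36, −6.58 and −6.60 in IRE1 cells and −6.47, −6.28 and −6.05 in ΔLD cells. Against opi3 cells this was a difference of −2.28 for IRE1 and −1.57 for ΔLD (adjusted p 9.47e-11 and 4.51e-08).

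The within-slide opi3 difference of some transporters, not the same ones in both strains, became smaller from slide 1 to slide 3. The OPI3 signal of the opi3 array rose in the same slide order. In IRE1 cells HXT5 differed by 3.90 on slide 1, where OPI3 was not above background, by 2.72 on slide 2 and by 1.94 on slide 3, where OPI3 was at 31.0%. HXT6 differed by 2.01, 1.34 and 0.04 on these slides, and HXT10 by 2.20, 1.73 and 1.5. The untreated HXT6 arrays rose over the same slides, at −1.24, −0.98 and −0.28, and this rise enters the HXT6 differences. HXT2 did not follow that order, at 1.25, 0.90 and 1.06, nor did HXT1, at −0.33, −0.38 and −0.30. In ΔLD cells the differences of HXT5 (3.22, 2.93 and 2.39), HXT10 (1.64, 1.46 and 1.43) and HXT1 (−1.38, −0.95 and −0.60) became smaller from slide 1 to slide 3. HXT6 in ΔLD cells did not follow the order, at 1.3, 1.5 and 0.91, nor did HXT2, at 1.03, 0.84 and 0.86. On the opi3 arrays without choline, slide, replicate and OPI3 signal cannot be told apart, and the part of each was not tested. In opi3 ΔLD cells with choline, OPI3 was not above background on any slide. From slide 1 to slide 3 HXT5 fell there (−3.48, −4.46 and −4.72), as did HXT6 (−0.81, −1.0 and −1.31). HXT10 rose (−6.47, −6.28 and −6.05), as did HXT2 (0.89, 1.22 and 1.29). Without the 3 arrays above 10% of the untreated OPI3 level, the opi3 rise of HXT5 was 3.18 in IRE1 cells and 2.99 in ΔLD cells, that of HXT6 was 1.40 and 1.29, and that of HXT10 was 1.96 and 1.60. HXT4 in ΔLD cells was then 0.86 (adjusted p 0.0602), and the choline difference of HXT6 in IRE1 cells −1.09 (adjusted p 0.0584). Without all 5 arrays with OPI3 above background the latter was −1.29, with 1 opi3 array left.

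**Figure D4:**
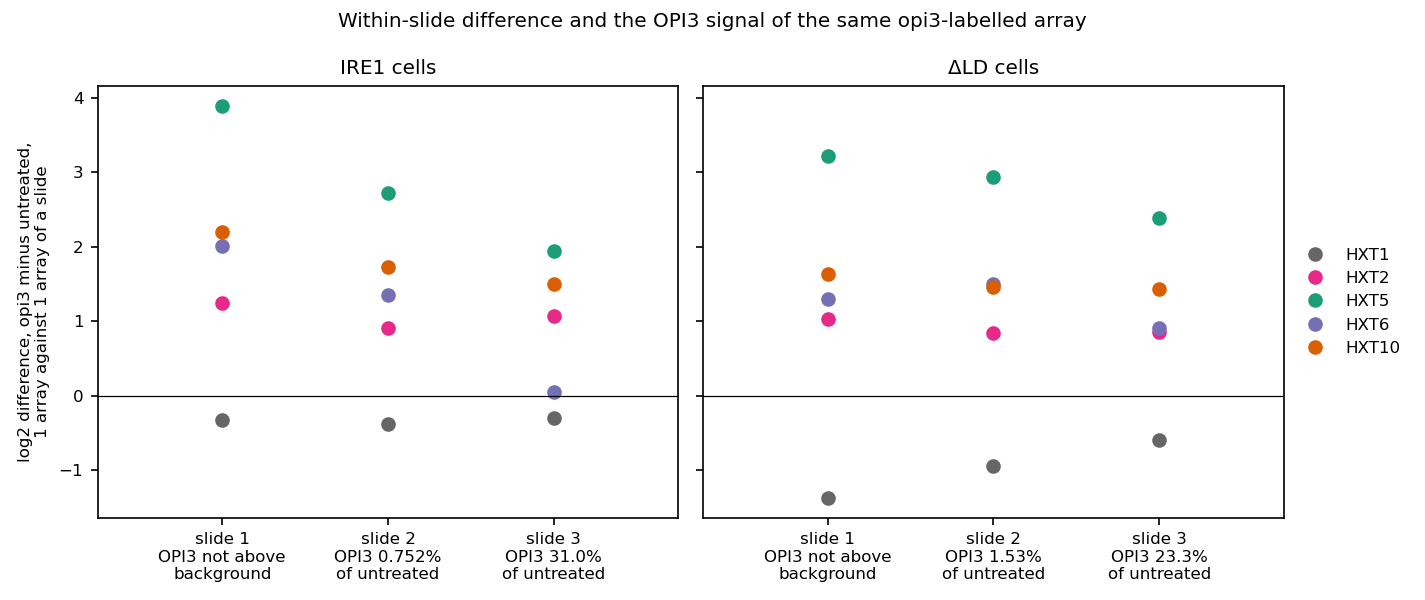
Log2 difference of 1 opi3 array minus 1 untreated array of the same slide (y axis) for 5 transporters, by slide (x axis, with the OPI3 signal of that opi3 array) in IRE1 and ΔLD cells. HXT5 goes from 3.90 to 1.94 and HXT6 from 2.01 to 0.04 across the slides of IRE1 cells, while HXT2 stays between 0.84 and 1.25 in both strains.

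Few transporters passed the test between opi3 cells with choline and untreated cells. In IRE1 cells 1 of the 8 genes was called, HXT2, higher by 0.63 (SE 0.12, adjusted p 0.00633), where 2.22% of all genes were called. This call was lost without all replicate 2 arrays (0.69, adjusted p 0.154) or all replicate 3 arrays (0.65, adjusted p 0.131). HXT10 was lower by an uncalled 0.47, a difference of −0.47 (adjusted p 0.0857, and −0.58 with adjusted p 0.0261 without all replicate 1 arrays). In ΔLD cells limma called 0 of 8, where 0.515% of all genes were called, and HXT2 there differed by 0.43 (adjusted p 0.139, and 0.55 with adjusted p 0.0377 without choline replicate 1). The 95% intervals stayed wide for HXT5, −0.18 to 1.43 in IRE1 cells and −0.54 to 1.06 in ΔLD cells.

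Few transporters passed the test between the strains. Of the 8 genes limma called 0 in untreated cells, where 0.789% of all genes were called, and the estimates ran from −0.17 for HXT10 to 0.26 for HXT1. With DTT 1 of 8 was called against 20.7% of all genes. This was HXT2, lower in ΔLD cells by 0.48, a difference of −0.48 (SE 0.12, adjusted p 0.0049), which was not called without all replicate 2 arrays (−0.44, adjusted p 0.127) or with E1A scaling (−0.61, adjusted p 0.129, where the median of all genes was −0.11). HXT5 with DTT lay higher on every ΔLD array than on every IRE1 array, with an estimate of 0.91 (95% interval 0.11 to 1.71) that was not called (adjusted p 0.103). It was called with only the 2 groups compared in the fit (adjusted p 0.0435).

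In opi3 cells 1 of 8 was called between the strains against 16.1% of all genes. HXT10 was lower in ΔLD cells, with a difference of −0.46 (SE 0.14, adjusted p 0.0302) and overlapping arrays. It was not called without opi3 replicate 1 (−0.30, adjusted p 0.194) or 2 (−0.47, adjusted p 0.0733) of IRE1 cells, without replicate 2 (−0.43, adjusted p 0.0985) or 3 (−0.37, adjusted p 0.149) of ΔLD cells, or with the groups compared alone in the fit (adjusted p 0.268). E1A scaling (−0.32, adjusted p 0.742, with a median of all genes of 0.15) and leaving out all replicate 2 arrays (−0.44, adjusted p 0.427) also lost the call. With the replicate number as a block 4 genes were called, adding HXT1 (−0.38, adjusted p 0.0148), HXT3 (0.34, adjusted p 0.0395) and HXT4 (0.87, adjusted p 0.0279). Every opi3 array of ΔLD cells had more HXT4 signal than every opi3 array of IRE1 cells (adjusted p 0.0676 without the block), and HXT4 was also called with only the groups compared (adjusted p 0.0231), without all replicate 1 arrays (0.83, adjusted p 0.03), with quantile normalization (0.90, adjusted p 0.049) and with E1A scaling (1.01, adjusted p 0.0412). Leaving out IRE1 replicate 3 called HXT3 (0.48, adjusted p 0.0473), and leaving out ΔLD replicate 3 called HXT1 (−0.52, adjusted p 0.0292). In opi3 cells with choline limma called 0 of 8 against 3.14% of all genes, and with the block it called HXT1 (−0.42, adjusted p 0.026).

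The effects themselves were also compared between the strains, as ΔLD minus IRE1. The DTT effect differed for 1 of 8 genes against 8.31% of all genes. HXT2 had the more negative DTT effect in ΔLD cells, by −0.63 (SE 0.16, adjusted p 0.0185), with slides at −0.74, −0.80 and −0.35. This was not called without ΔLD DTT replicate 1 (−0.51, adjusted p 0.053), ΔLD untreated replicate 2 (−0.57, adjusted p 0.056) or IRE1 DTT replicate 2 (−0.53, adjusted p 0.0678). The HXT5 difference of 0.82 (95% interval −0.31 to 1.96) was not called.

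The opi3 effect differed for 0 of 8 genes by limma, against 4.11% of all genes. HXT1 came nearest, at −0.64 (SE 0.21, adjusted p 0.0918), with the same sign on all 3 slides. It was called with the block (adjusted p 0.0133), without the ΔLD opi3 replicate 3 array (−0.78, adjusted p 0.0382) and without the 3 arrays above 10% of the untreated OPI3 level (−0.73, adjusted p 0.0438). For HXT5 the difference was 0.00 with a 95% interval of −1.14 to 1.13, too wide to show alike responses. The choline effect differed for 1 of 8 genes against 6.99% of all genes: HXT10 fell less in ΔLD cells, by 0.71 (SE 0.20, adjusted p 0.0395), with slides at 0.41, 0.82 and 0.89. It was not called without replicate 1 (0.55, adjusted p 0.111) or 2 (0.72, adjusted p 0.0711) of opi3 IRE1 cells, replicate 2 (0.67, adjusted p 0.0849) or 3 (0.62, adjusted p 0.114) of opi3 ΔLD cells, replicate 2 (0.67, adjusted p 0.0959) or 3 (0.67, adjusted p 0.0831) of IRE1 cells with choline, or replicate 2 (0.72, adjusted p 0.0619) or 3 (0.60, adjusted p 0.106) of ΔLD cells with choline. HXT10 was also not called with normexp background correction (0.50, adjusted p 0.112) or with E1A scaling (0.65). With the block HXT3 was called as well (−0.53, adjusted p 0.0422). With only the groups compared HXT4 was called (−0.93, adjusted p 0.0231) and HXT10 was not (adjusted p 0.162).

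Few other members of the transporter family gave signal. Of the 9 further genes examined, 4 passed the filter, HXT8, HXT9, HXT17 and GAL2, the galactose permease. Of these, HXT8, HXT9 and GAL2 were called higher in opi3 cells of both strains. Of all genes 32.2% were higher in IRE1 cells and 29.2% in ΔLD cells. With choline the same genes were called lower in both strains, where 36.3% of all genes were lower in IRE1 cells and 32.2% in ΔLD cells. No median is given, since it would rest on HXT17. In IRE1 cells HXT9 rose by 1.52 with DTT (adjusted p 7.53e-10) and by 1.62 in the opi3 background, and with choline it fell, by −1.88. The choline effect on HXT9 was smaller in ΔLD cells, by 1.13 (adjusted p 0.000104). GAL2 rose by 1.27 in opi3 ΔLD cells (adjusted p 1.88e-07). HXT17 was called in the same directions, but it was above background on 11 arrays and on 0 arrays of either choline group. It passed the filter only through other groups, so its direction is not read as a result and no fold is given for it. HXT9 closely resembles HXT11, and HXT17 resembles HXT13, HXT15 and HXT16, so these signals are uncertain.

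Few genes of glucose sensing changed 2-fold. Of the 10 genes of the Snf3, Rgt2 and Rgt1 route, 3 were higher and 3 lower in opi3 ΔLD cells (29.2% and 27.3% of all genes) and 2 were higher and 4 lower in opi3 IRE1 cells (32.2% and 35.1% of all genes), with medians of −0.02 and −0.03. MTH1, whose product helps Rgt1 to repress, was the 1 that changed at least 2-fold. It rose by 1.42 in opi3 ΔLD cells (SE 0.31, adjusted p 0.000871) and fell with choline, by −1.36 in IRE1 and −1.52 in ΔLD cells (adjusted p 0.000814 and 0.000463). With DTT 2 of the 10 were higher and 6 lower in IRE1 cells, where 39.4% of all genes were higher and 30.1% lower. In ΔLD cells 1 was higher and 5 were lower, where 38.1% of all genes were higher and 28.3% lower. Of the 7 genes of the Snf1 and Mig1 branch, 0 changed at least 2-fold, and with DTT 3 were lower in IRE1 cells and 5 in ΔLD cells, with 0 higher, against the same shares of all genes.

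Of 12 genes that glucose represses, 10 were higher and 1 was lower in opi3 cells of each strain, where 32.2% of all genes were higher and 35.1% lower in IRE1 cells and 29.2% and 27.3% in ΔLD cells. The medians were 1.32 and 1.28, and 7 of the 12 were at least 2-fold higher in each strain. In IRE1 cells these were led by ADR1, a transcription factor for growth on alcohol, at 2.73 (SE 0.18, adjusted p 2.19e-10), and MAL12, a maltase, at 2.63. ADH2, the alcohol dehydrogenase of ethanol use, rose by 2.20, and FBP1, the fructose bisphosphatase of gluconeogenesis, by 2.08. In ΔLD cells MAL12 rose by 2.01, MLS1, the malate synthase of the glyoxylate cycle, by 1.89, FBP1 by 1.86 and ADR1 by 1.63. The gene that was lower was SUC2, which encodes invertase, at −0.49 in IRE1 cells and −0.36 in ΔLD cells. The ADR1 effect was smaller in ΔLD cells, by −1.1 (adjusted p 0.015).

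Choline reversed the sign for most of these 12 genes, with 9 lower and 1 higher in IRE1 cells and 10 lower and 1 higher in ΔLD cells (medians −1.12 and −1.0). MAL12 fell with a difference of −2.56 in IRE1 cells and −1.59 in ΔLD cells, and ADR1 with −2.34 and −1.53. All genes stood at 34% higher and 36.3% lower in IRE1 cells and 27.8% and 32.2% in ΔLD cells with choline. With DTT 8 of the 12 were higher and 0 lower in IRE1 cells, ADR1 by 1.39 (all genes 39.4% and 30.1%), and 4 were higher and 1 lower in ΔLD cells (all genes 38.1% and 28.3%), with medians of 0.48 and 0.32.

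Among 15 genes of hexose phosphorylation and glycolysis, GLK1 and HXK1, which encode glucokinase and a hexokinase, were the genes that rose with DTT. GLK1 rose with DTT by 2.38 (SE 0.31, adjusted p 1.62e-06) in IRE1 and 2.14 in ΔLD cells, and by 2.05 and 1.23 in opi3 cells. The DTT rise of HXK1 was 1.47 (adjusted p 0.0187) in IRE1 and 1.22 (adjusted p 0.0482) in ΔLD cells. In opi3 IRE1 cells HXK1 differed by 1.61 (SE 0.53, adjusted p 0.0115), with arrays that overlapped the untreated ones. With DTT 8 of the 15 were lower in each strain, where 30.1% of all genes were lower in IRE1 cells and 28.3% in ΔLD cells. In opi3 cells 10 were lower in IRE1 cells (35.1% of all genes) and 6 in ΔLD cells (27.3% of all genes). With choline GLK1 fell, by −1.99 in IRE1 cells and −1.38 in ΔLD cells. HXK1 differed by −1.58 with choline in IRE1 cells (adjusted p 0.012), again with overlapping arrays.

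Across the 24 arrays the 8 genes fell into loose groups, given here as a description, since the points share groups, slides and scaling. HXT5 and HXT10 correlated at 0.89, HXT3 and HXT4 at 0.80, and HXT2 and HXT6 at 0.75. HXT4 also correlated with HXT6 at 0.76 and with HXT2 at 0.63, so the last 2 of these pairs were not separate. HXT1 ran opposite to HXT2 (−0.78) and HXT6 (−0.69). Within groups, after the group means were taken off, HXT1 and HXT2 correlated at 0.29, HXT5 and HXT10 at 0.39, and HXT5 and HXT6 at 0.82. HXT3 correlated within groups at 0.82 with both HXT1 and HXT4.

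Among the other genes, those with the most similar profile over 24 arrays were DDR2 (0.98) and AGP2 (0.97) for HXT5 and COS4 (0.98) and REG2 (0.97) for HXT10. For HXT1 they were GPI12 (0.94) and PER1 (0.93), and for HXT2 GAS5 (0.94) and UIP5 (0.91). MIC12 and OLE1 (both 0.89) came closest to HXT3, MTL1 (0.83) and EPL1 (0.82) to HXT4, PPZ1 (0.89) and YCL048W-A (0.88) to HXT6, and PPZ1 and MTL1 (both 0.88) to HXT7. DDR2 is a general stress gene, and REG2 encodes a regulatory subunit of the Glc7 phosphatase. Over the 8 group means GAS5 was again first for HXT2, and for the other 7 genes both names differed.

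The authors' deposited table lists HXT2, HXT6 and HXT7 among its selected genes. Its log2 values were within 0.0139 of the differences from untreated IRE1 cells computed here, and for opi3 IRE1 cells the authors' deposited table gives 1.07 for HXT2, 1.13 for HXT6 and 1.08 for HXT7.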

How the data were processed

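The authors scanned and quantified the arrays with Agilent Feature Extraction 10.7.1.1, and the spot intensity used here is, per the file headers, a processed signal after background subtraction and spatial detrending and before any scaling across arrays. The authors also deposited log2 ratios for selected genes, with reference and normalization not stated. The array annotation rests on an early genome assembly, so coordinates and sequences are not given.

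Files were read with data.table (version 1.17.8) in R 4.3.3. Control and outlier spots were left out (1.10% to 2.05% of spots), the array's 75th percentile (6951 to 15890) was subtracted on the log2 scale, and spots were averaged per probe and probes per gene. Genes were kept where every array of some group had over 50% of a probe's spots flagged as above background (6210, of which 5753 matched RefSeq names). On the arrays 90.6% to 95.8% of spots were well above background. The 24 arrays limit the precision. One limma 3.58.1 model with 8 group means (16 residual degrees of freedom) gave 15 comparisons, with two-sided p-values adjusted by Benjamini-Hochberg over 6210 genes, and calls at an adjusted p under 0.05. The script was tested on simulated data.

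The members and gene lists were chosen with earlier results of these data known. The text names all 8 members, OPI3 and IRE1, up to 4 genes per list and comparison that changed at least 2-fold, and the 2 most correlated genes per member. SUC2 was named after its values were seen. The lists of genes were those of the transporter family, of glucose sensing, of glucose repression, of glycolysis, of genes repressed by glucose and of mating type markers. Alternatives were quantile normalization, normexp background correction (offset 50, on median signals because the files hold no mean signal), scaling to E1A control spots, no filter, a strict filter, outlier spots kept, the replicate number as a block, only the groups compared, HXT6 and HXT7 averaged, and arrays left out. Leaving out arrays with OPI3 signal was chosen after seeing the data. Replicate number, slide and scan coincide per the file headers. Same-numbered arrays deviated together (all correlations over 0.1) in 8 of 12 comparisons, and 24 of 24 arrays correlated best with their own number.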

Additional observations from a re-analysis of the deposited data

Results flagged for a closer look

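Differences of effects between the strains passed the test for 2 of the 8 transporters. The DTT effect on HXT2 was more negative in ΔLD cells than in IRE1 cells, with a difference of −0.63 (SE 0.16, adjusted p 0.0185 by limma), with the same sign on 3 of 3 slides. The choline effect on HXT10 was 0.71 higher in ΔLD cells, that is, a smaller fall (SE 0.20, adjusted p 0.0395), also on 3 of 3 slides. Leaving out 1 array or 1 replicate number gave adjusted p-values up to 0.36 for HXT2 and up to 0.582 for HXT10. The groups of 3 arrays were too small for a test of single deviating arrays.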

How the results depend on the processing

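Of the 42 called differences of the 8 transporters, 17 kept direction and call in all alternatives run: all 6 effects on HXT5 and on HXT10, the opi3 effects on HXT2 in both strains, and 3 on HXT1 (DTT in IRE1 cells, opi3 and choline in ΔLD cells). The other 25 lost the call under at least 1 alternative, and of 78 uncalled differences 15 gained one. Without all arrays of replicate 1, 2 or 3 the call was lost by 1, 18 and 10 of the 42. E1A scaling reversed the DTT difference in IRE1 cells for HXT3 (0.046) and HXT2 (0.67), and there the shift of the median of all genes to 0.94 accounts for the change by construction.

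The number of the 8 genes called moved as follows. With DTT it was 6 in IRE1 cells (4 to 8 with arrays left out) and 5 in ΔLD cells (4 to 5, and 3 with E1A scaling). For opi3 it was 7 in IRE1 cells (3 to 7) and 7 in ΔLD cells (4 to 7). For choline it was 5 (4 to 7, and 4 to 6 under the other alternatives) and 7 (4 to 7, and 5 to 8 under the other alternatives, 8 with quantile normalization, which adds HXT3). Opi3 cells with choline against untreated cells gave 1 (0 to 2) and 0 (0 to 1). Between strains it was 0 untreated and 1 with DTT (0 to 1, 0 with E1A scaling, 2 with only the groups compared). It was 1 in opi3 cells (0 to 2, 2 with quantile normalization) and 0 with choline (0 to 1). The differences of effects gave 1 for DTT (0 to 1) and 0 for opi3 (0 to 1, 1 without arrays over 10% of the OPI3 level). For choline they gave 1 (0 to 1, 0 with normexp or E1A scaling). With the replicate block the counts were 4 between strains in opi3 cells, 1 with choline, 1 for the opi3 difference and 2 for the choline difference, and the block changed no call beyond those given in the text. Apart from E1A scaling, the causes were not tested.

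HXT10 was dim, and the size of its DTT effect depended on the background correction, while the DTT calls held in all alternatives. The normexp correction adds an offset of 50, which shrinks the log2 differences of dim probes by construction. How much of the change this makes up was not tested. Leaving out a whole replicate number left 2 arrays in each group. Leaving out all arrays with OPI3 above background left 1 opi3 array without choline in each strain, so no count is given for it. HXT6 and HXT7 averaged gave −0.94 for DTT in IRE1 cells (adjusted p 0.0511).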
